A study of Mus musculus with 25 samples.

Results

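The genes described here carry long-chain fatty acids into mitochondria and break them down by beta-oxidation in blood stem cells. They are 10 of the 13641 genes in the count table: Cpt1a, Slc25a20 and Cpt2 of the carnitine import route, the acyl-CoA dehydrogenases Acadvl, Acadm and Acads, the trifunctional protein subunits Hadha and Hadhb, the hydratase Echs1 and the isomerase Eci1. They were chosen by name for their place in the pathway, and all 10 symbols matched 1 Ensembl gene each and passed the filter on low counts.

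Long-term haematopoietic stem cells, sorted as Lin-Sca1+cKit+CD48-CD150+, came from the bone marrow of mice that had received donor marrow of 4 genotypes. WT donors were labelled SclCre;GFP and VF donors SclCre;V617F;GFP, where V617F is the activating JAK2 mutation of myeloproliferative neoplasms. The Il1bKO donors were labelled SclCre;V617F;IL-1b-/-GFP and the Il1r1KO donors SclCre;V617F;IL-1R1-/-GFP, so both carried the JAK2 mutation with loss of the cytokine IL-1 beta or of its receptor. Tamoxifen, which activates the Cre enzyme under control of the Scl (Tal1) gene, was given 16 weeks after transplantation to switch on the JAK2 construct. Marrow was taken 2 weeks later (4 libraries of each genotype) or 4 weeks later (3 libraries each of VF, Il1bKO and Il1r1KO, none of WT), 25 libraries in 7 groups. The labels give no genotype for the recipients, the strain and age of the mice are not given in the sources used here, and no label says whether marrow was pooled. The p-values therefore measure the spread between these libraries. The 2 times were also the 2 processing batches, so time and batch cannot be told apart.

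Fatty acids enter the pathway as acyl-CoA. Carnitine palmitoyltransferase 1 (Cpt1a is its liver form, which is also found in blood cells) joins them to carnitine at the outer mitochondrial membrane and is the step that malonyl-CoA inhibits. The translocase Slc25a20 carries the acylcarnitine across the inner membrane and Cpt2 turns it back into acyl-CoA. Each round of beta-oxidation then takes a dehydrogenase chosen by chain length, a hydratase, a second dehydrogenase and a thiolase, and releases acetyl-CoA. In mouse blood stem cells, fatty acid oxidation downstream of PML and PPAR delta is known for its part in stem cell maintenance.

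Library totals ran from 21990959 to 40178173 counts, and 11871 to 13491 genes were detected per library. One library stood apart from the rest. Replicate 5 of Il1bKO at 4 weeks had the fewest genes detected (11871, against 13039 in the next lowest library) and a median Pearson r of 0.849 to the other libraries, against 0.914 for the next lowest, and its values are given beside each result they touch. All 10 stem cell markers on the list were found in every library, and Cd48, which the sort selects against, lay between 0.606 and 17.1 CPM, the read count of a gene divided by the TMM-scaled library total and given on the usual CPM scale. Reads of Il1b numbered 0 in each of the 7 Il1bKO libraries. They numbered 0 to 4 in WT, 0 to 391 in VF and 0 to 84 in Il1r1KO, so a count of 0 alone does not mark the knockout. Il1r1 lay at 9.79 to 31.1 CPM in the Il1r1KO libraries and at 8.59 to 24.3 CPM in the VF libraries. The deleted part of the Il1r1 allele is not given in the sources used here, so this count checks no label. Both parts of the human JAK2 construct were at 39.1 CPM or more in the 21 mutant libraries and at 0.733 CPM or less in the 4 WT libraries. The part of exons 13 to 25 lay at 81.6 to 115 CPM in Il1r1KO, 45.0 to 99.7 in Il1bKO and 39.1 to 60.8 in VF. That of exons 3 to 12 lay at 140 to 218, 65.8 to 125 and 99.7 to 130 CPM in the same order. The CreERT2 sequence had 0 or 1 reads in the 4 libraries labelled SclCre;GFP, against 195 to 828 CPM in the mutant ones, which goes against the Cre in that label. The pEGFP sequence lay at 998, 518, 3.03 and 49.3 CPM in replicates 1 to 4 of WT and at 385 CPM or more in every mutant library, so replicates 3 and 4, labelled GFP, held little of it. The WT libraries therefore differ from VF in the CreERT2 signal as well as in JAK2, and 2 of them in pEGFP. Every Il1r1KO library was above every VF library in both JAK2 parts and in pEGFP (868 to 1473 against 462 to 541 CPM). The part of this in the differences of Il1r1KO from VF was not tested.

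On mm10, Cpt1a (ENSMUSG00000024900) lies at chr19:3322334-3385733 on the plus strand, Cpt2 (ENSMUSG00000028607) at chr4:107903981-107923610 on the minus strand and Slc25a20 (ENSMUSG00000032602) at chr9:108662088-108684641 on the plus strand. Acadvl (ENSMUSG00000018574) lies at chr11:70010183-70015411, Acadm (ENSMUSG00000062908) at chr3:153922357-153944632 and Acads (ENSMUSG00000029545) at chr5:115110299-115119346, all 3 on the minus strand. Hadha (ENSMUSG00000025745) at chr5:30118304-30155162 and Hadhb (ENSMUSG00000059447) at chr5:30155248-30184593 are neighbours on opposite strands. Echs1 (ENSMUSG00000025465) lies at chr7:140105710-140116476 on the minus strand and Eci1 (ENSMUSG00000024132) at chr17:24426641-24439348 on the plus strand. All are protein-coding genes. The libraries were unstranded, so reads of overlapping genes on opposite strands cannot be told apart. Acadvl shares 1151 of its 2686 exon bases with Dvl2, Echs1 shares 142 of 8286 with Paox and Hadha shares 75 of 8730 with Garem2, and the level of Acadvl is the most uncertain for this reason.

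The subunits of the trifunctional protein are transcribed away from a shared stretch of chromosome 5. Their RefSeq start sites (GRCm38.p6) are 273 bases apart, and the windows from 250 bases before to 50 bases after each start share 228 bases. The window of Hadha (chr5:30154931-30155230, minus strand) is printed because it also covers most of the Hadhb promoter, and that of Cpt1a (chr19:3323051-3323350, plus strand) because Cpt1a was the member whose level moved most with group. Capitals mark GC boxes (GGGCGG on either strand), CCAAT boxes and the palindrome TTCNNNGAA, the core letters of a STAT site.
Hadha: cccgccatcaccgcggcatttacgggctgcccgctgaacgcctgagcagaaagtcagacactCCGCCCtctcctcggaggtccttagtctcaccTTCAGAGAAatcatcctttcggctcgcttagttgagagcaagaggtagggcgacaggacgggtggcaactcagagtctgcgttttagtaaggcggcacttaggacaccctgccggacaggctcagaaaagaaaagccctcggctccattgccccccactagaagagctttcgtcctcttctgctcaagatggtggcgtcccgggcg
Cpt1a: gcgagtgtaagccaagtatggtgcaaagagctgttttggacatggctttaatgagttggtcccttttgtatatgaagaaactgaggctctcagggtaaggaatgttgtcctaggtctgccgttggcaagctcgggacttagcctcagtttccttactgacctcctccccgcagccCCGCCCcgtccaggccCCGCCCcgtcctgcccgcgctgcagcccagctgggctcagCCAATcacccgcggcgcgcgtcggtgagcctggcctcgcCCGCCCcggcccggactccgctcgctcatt

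The Hadha window held 1 GC box and 1 TTCNNNGAA, and the Cpt1a window held 3 GC boxes and 1 CCAAT box. Searched on both strands over the windows of all 10 members, GGGCGG was found in 8 (35.7% of 32851 RefSeq windows of the same length hold it), and the Acadm and Acadvl windows were without it. TTCNNNGAA was found in 3, Cpt2, Hadha and Hadhb, against 8.3% of all windows, and the Hadha and Hadhb windows overlap each other. AGGTCA, the core letters of nuclear receptor sites, was found in 4 members, Acadm, Echs1, Acadvl and Cpt1a, against 16.3% of all windows. The PPAR and RXR element, searched as 2 copies of AGGTCA with 1 base between them, was found in 0 of 10 members and in 0.0396% of all windows, and the ERR element TCAAGGTCA in 0 of 10 and 0.423%. The NRF1 element, searched as GCGC, any base and then TGCGC, was found in 0 of 10 against 4.6%, TATAAA in 0 of 10 against 13.6%, and CCAAT in 1 of 10 (Cpt1a) against 37.4%. AGGTCA is part of the PPAR and ERR elements. These counts describe letters in a window.

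All 10 genes were expressed in every library, with 731 counts or more for each gene in each library. Per kb of annotated exon, the level was highest for the dehydrogenases Acadm (52.3 ± 7.20 CPM per kb, SD, n = 25) and Acadvl (50.5 ± 4.78) and for the isomerase Eci1 (42.5 ± 5.93). The ranges over libraries of these 3 genes overlapped one another. Acads (22.5 ± 4.00 CPM per kb), Cpt1a (21.1 ± 4.94), Cpt2 (18.7 ± 3.45), Echs1 (16.0 ± 2.81) and Slc25a20 (14.6 ± 1.56) formed an overlapping middle. Hadha (8.19 ± 1.35) and Hadhb (5.58 ± 1.35 CPM per kb) had the lowest means. Their highest libraries (12.5 and 11.4) lay above the lowest values of Cpt2 (7.85), Echs1 (7.80) and Slc25a20 (10.7). The highest Cpt1a value (34.6) likewise passed the lowest of Eci1 (33.4). Divided by the longest transcript instead, Acadm and Hadhb (8.39 CPM per kb) kept the ends of the order. Eci1 (79.5) moved above Acadvl (62.5), and Cpt1a (37.4), Echs1 (32.5) and Slc25a20 (25.6) moved above Acads (25.3). Echs1 and Slc25a20 also moved above Cpt2 (18.8).

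**Figure D1:**
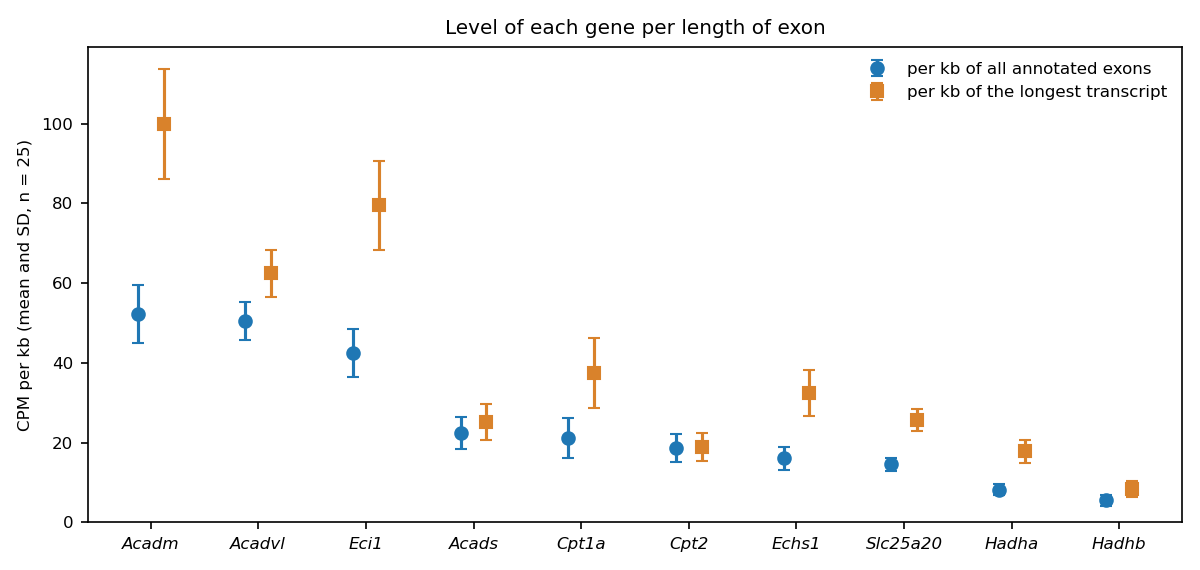
Level of each of the 10 genes in CPM per kb, as mean and SD over 25 libraries, per kb of all annotated exons (circles) and of the longest transcript (squares). Per kb of all exons Acadm is highest at 52.3 CPM per kb and Hadhb lowest at 5.58, and both keep these places per kb of the longest transcript.

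Summed over the 10 genes, the level lay between 896 and 1122 CPM in the 25 libraries. Group means ran from 931 ± 53.6 CPM (SD, n = 3) in Il1r1KO at 4 weeks to 1044 ± 61.2 (n = 4) in WT. The summed ranges of those groups were 896 to 992 and 993 to 1122 CPM. As the lowest and highest of 7 groups, which differ in genotype and week together, they make no test. Cpt1a alone had means of 108 and 199 CPM in these groups. The spread within groups differed between the genes. The SD of log2 CPM within groups was 0.11 for Acadvl, 0.17 for Slc25a20, 0.18 for Acadm, 0.19 for Cpt1a and Eci1, 0.24 for Hadha, 0.25 for Acads and Hadhb, 0.26 for Echs1 and 0.28 for Cpt2. The median over all genes was 0.31, and over genes in the same range of levels 0.22, above which lay 5 of the 10 genes (Hadha, Acads, Hadhb, Echs1 and Cpt2). Without the library that stood apart, Cpt1a came to 0.13, Cpt2 to 0.20, Hadhb to 0.15 and Echs1 to 0.17.

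**Figure D2:**
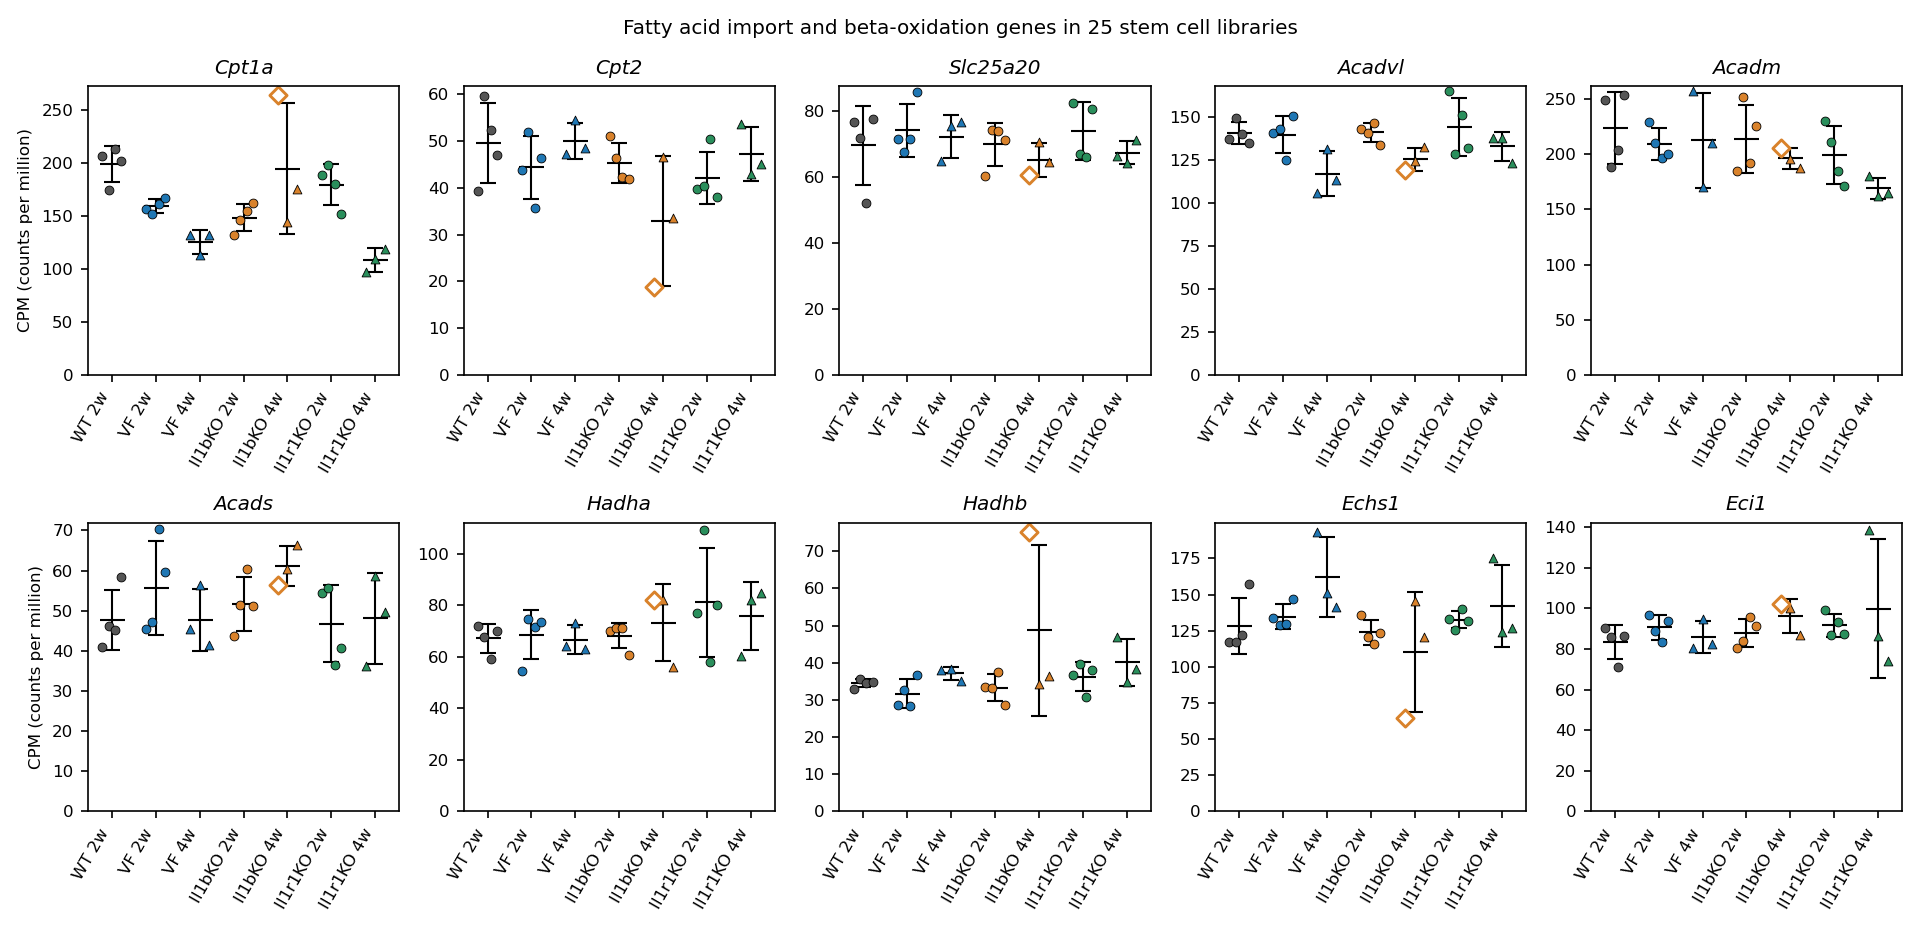
CPM of each of the 10 genes in 25 libraries by genotype and week (circles 2 weeks, triangles 4 weeks, bars mean and SD). The open diamond is replicate 5 of Il1bKO at 4 weeks, which is highest for Cpt1a (264 CPM) and Hadhb (75.3 CPM) and lowest for Cpt2 (18.8 CPM) and Echs1 (64.7 CPM).

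The first comparison sets VF against WT at 2 weeks, groups that differ in the CreERT2 signal as well as in JAK2. In the WT libraries Cpt1a lay at 207, 175, 213 and 202 CPM, and in the VF libraries of the same week at 157, 152, 162 and 167 CPM. Every VF library was below every WT library. The fitted log2 fold change (VF minus WT, so below 0 where VF is lower) was -0.32 ± 0.13 (SE) with an unadjusted p of 0.0249 and an adjusted p of 0.9998 over 13630 genes (edgeR quasi-likelihood test, Benjamini-Hochberg), so Cpt1a did not pass. It was -0.29 without replicate 3 of WT and -0.31 without replicate 4, the libraries low in pEGFP. Summed granulocyte and monocyte markers separated the same groups, at 25.3 to 67.8 CPM in WT and 79.6 to 134 in VF. So did the T and NK cell marker Nkg7, at 5.57 to 17.95 and 18.4 to 34.5 CPM. The other lists with genes in the table overlapped. Among them stem cell markers lay at 2545 to 3680 CPM in WT and 2366 to 2997 in VF. Megakaryocyte and platelet markers lay at 91.2 to 165 and 149 to 272 CPM. The part of these markers and of CreERT2 in the Cpt1a values was not tested. In bulk samples fewer cells of a type and less RNA per cell cannot be told apart.

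Of the 10 genes, edgeR called 0 in VF against WT, where it called 0.00734% of all genes (1 of 13630), and DESeq2 and limma voom called 0 as well. At an unadjusted p under 0.05 there was 1 of 10 (2.27% of all genes), Cpt1a, whose WT and VF ranges were also the ones that did not overlap, as for 3.67% of all genes. Acads, the short-chain dehydrogenase, had the highest difference (0.22 ± 0.18, adjusted p = 0.9998). Its values were 41.0, 46.1, 45.3 and 58.4 CPM in WT and 45.5, 47.2, 70.3 and 59.7 CPM in VF, which overlap. The other 8 genes lay between -0.16 (Cpt2) and 0.12 (Eci1), with SE of 0.091 to 0.19. The median over the 10 was 0.011, against 0.0020 over all genes.

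Loss of IL-1 beta in the mutant donors was compared with VF within each week. At 2 weeks 0 of the 10 genes were called by edgeR, DESeq2 or limma voom, and 0 had an unadjusted p under 0.05 (edgeR called 0.00734% of all genes, and 1.36% had an unadjusted p under 0.05). The log2 differences of Il1bKO from VF were all small, from -0.12 (Echs1) to 0.072 (Hadhb). Cpt1a lay at 132, 146, 155 and 162 CPM in Il1bKO against 152 to 167 CPM in VF. The groups overlapped, and the log2 difference was -0.10 ± 0.13. Ranges did not overlap for 0 of the 10 genes, against 3.65% of all genes.

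At 4 weeks the 3 Il1bKO libraries differed among themselves. Cpt1a lay at 264, 145 and 176 CPM in replicates 5, 6 and 7, and at 132, 113 and 132 CPM in VF. All 3 Il1bKO libraries were above all 3 VF libraries, and the log2 difference was 0.63 ± 0.15 with an adjusted p of 0.0911, so Cpt1a did not pass in edgeR. DESeq2 gave an adjusted p of 0.0104. Without replicate 5 the log2 difference was 0.35 with an edgeR adjusted p of 0.379. Summed megakaryocyte and platelet markers separated the same groups, at 194 to 270.5 CPM in Il1bKO and 319 to 1859 CPM in VF, and their part was not tested. The other lists with genes in the table overlapped, with stem cell markers at 1986 to 2333 CPM in Il1bKO and 2038.5 to 2229 in VF.

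Cpt2, the partner enzyme on the inner membrane, went the other way in that library. It lay at 18.8, 46.5 and 33.6 CPM in Il1bKO and at 47.3, 54.4 and 48.4 CPM in VF, a log2 difference of -0.60 ± 0.23 (edgeR adjusted p = 0.224). The VF libraries were all higher. Without replicate 5 the log2 difference was -0.32 (adjusted p = 0.600). The ratio of Cpt1a to Cpt2 in CPM was 14.1 in replicate 5 and between 1.80 and 5.26 in the other 24 libraries.

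Replicate 5 was also far from its group in Hadhb and Echs1. Hadhb, the thiolase subunit, lay at 75.3, 34.4 and 36.5 CPM in Il1bKO at 4 weeks against 38.2, 38.2 and 35.2 CPM in VF. The log2 difference of 0.39 ± 0.21 (edgeR adjusted p = 0.402) became -0.071 without replicate 5. Echs1, the short-chain enoyl-CoA hydratase, lay at 64.7, 146 and 121 CPM in Il1bKO against 193, 151 and 141 CPM in VF. Its log2 difference was -0.55 ± 0.20 (adjusted p = 0.205), and -0.28 without replicate 5. Summed mast cell and basophil markers were at 53.7 CPM in replicate 5 and at 13.8 CPM or less in the other 24 libraries, and the stem cell markers at 2333 CPM. The part of these in the values of that library was not tested.

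In Il1bKO against VF at 4 weeks edgeR called 0 of the 10 genes (0.125% of all genes), limma voom called 0 and DESeq2 called 1, Cpt1a. Over all genes DESeq2 called 375. At an unadjusted p under 0.05 there were 3 of 10, Cpt1a, Cpt2 and Echs1, against 14.7% of all genes. The ranges did not overlap for 3 of 10, Cpt1a and Acads higher in Il1bKO and Cpt2 lower, against 13.0% of all genes. Leaving out replicate 6 of Il1bKO in place of replicate 5 made edgeR call 3 of the 10 genes, Cpt1a (0.81), Cpt2 (-0.94) and Echs1 (-0.80). Over all genes that run called 225, against 17 with every library. Leaving out replicate 7 made edgeR call Cpt1a. The other 6 genes lay between -0.15 (Slc25a20) and 0.35 (Acads).

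Over both weeks, edgeR, DESeq2 and limma voom called 0 of the 10 genes in Il1bKO against VF, where edgeR called 0.139% of all genes. Cpt1a stood at 0.27 ± 0.10 (edgeR adjusted p = 0.432) and 0.12 without replicate 5. Echs1 stood at -0.34 ± 0.13 (adjusted p = 0.436) and -0.20 without it. Those 2 of the 10 had an unadjusted p under 0.05, against 9.38% of all genes. Cpt2 stood at -0.29 ± 0.15 and Hadhb at 0.23 ± 0.14, and without replicate 5 at -0.14 and 0.0005. The difference between the weeks was itself tested. For Cpt1a it was 0.74 ± 0.20 (adjusted p = 0.418) and for Cpt2 -0.64 ± 0.30 (adjusted p = 0.582). Both had an unadjusted p under 0.05 (8.28% of all genes had), and edgeR called 0 of 10 (0.0147% of all genes), as did DESeq2 and limma voom. Without replicate 5 the difference between the weeks was 0.45 for Cpt1a and -0.35 for Cpt2.

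The libraries labelled IL-1R1-/- were compared with VF in the same way. Over both weeks edgeR called 0 of the 10 genes in Il1r1KO against VF (0.169% of all genes), DESeq2 and limma voom called 0, and 0 had an unadjusted p under 0.05 (11.4% of all genes had). Hadha, the hydratase and dehydrogenase subunit, was the highest at 0.21 ± 0.12 (adjusted p = 0.545). Its Il1r1KO values were 76.9, 109, 57.9 and 80.1 CPM at 2 weeks and 60.5, 81.9 and 84.7 at 4 weeks, and they overlapped the VF range of 54.5 to 74.5 CPM. Acadm, the medium-chain dehydrogenase, was lowest at -0.20 ± 0.10 (adjusted p = 0.439), and Acadvl, the very-long-chain dehydrogenase, stood at 0.11 ± 0.069 (adjusted p = 0.561). The other 7 genes lay between -0.12 (Acads) and 0.15 (Hadhb).

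Within 2 weeks edgeR called 0 of 10 in Il1r1KO against VF (0.0514% of all genes) and within 4 weeks 0 of 10 (0.147%), and DESeq2 and limma voom called 0 in both. At an unadjusted p under 0.05 there were 0 at 2 weeks (3.15% of all genes) and 1 at 4 weeks, Acadm (12.7% of all genes). It lay at 180.2, 162 and 165 CPM in Il1r1KO at 4 weeks against 257, 171 and 210.4 CPM in VF, a log2 difference of -0.33 ± 0.15 (adjusted p = 0.349), and the groups overlapped. Cpt1a stood at 0.17 ± 0.13 at 2 weeks and -0.21 ± 0.15 at 4 weeks. At 4 weeks summed stem cell markers lay at 1511 to 1950 CPM in Il1r1KO and 2038.5 to 2229 in VF. Endothelial and stromal markers lay at 55.2 to 61.2 and 64.2 to 72.1 CPM. The other lists with genes in the table overlapped at 4 weeks, and the part of these markers was not tested. Ranges did not overlap for 0 of 10 genes at 2 weeks (4.01% of all genes) and 0 of 10 at 4 weeks (13.1%). For the change between the weeks edgeR called 0 of the 10 genes and 0 of all 13630 (725 genes, 5.32%, had an unadjusted p under 0.05, and DESeq2 called 22, none of the 10).

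Set against each other over both weeks, the knockouts differed in 0 of the 10 genes by edgeR (0.176% of all genes), DESeq2 and limma voom, with 1 of 10 at an unadjusted p under 0.05 (14.1% of all genes). That was Cpt1a, at -0.29 ± 0.10 for Il1r1KO minus Il1bKO (edgeR adjusted p = 0.238) and -0.14 without the library that stood apart. Acads stood at -0.24 ± 0.14 and Echs1 at 0.23 ± 0.13, the latter 0.094 without that library. These comparisons share the VF libraries or the knockout libraries, so their values for a gene are not independent.

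**Figure D3:**
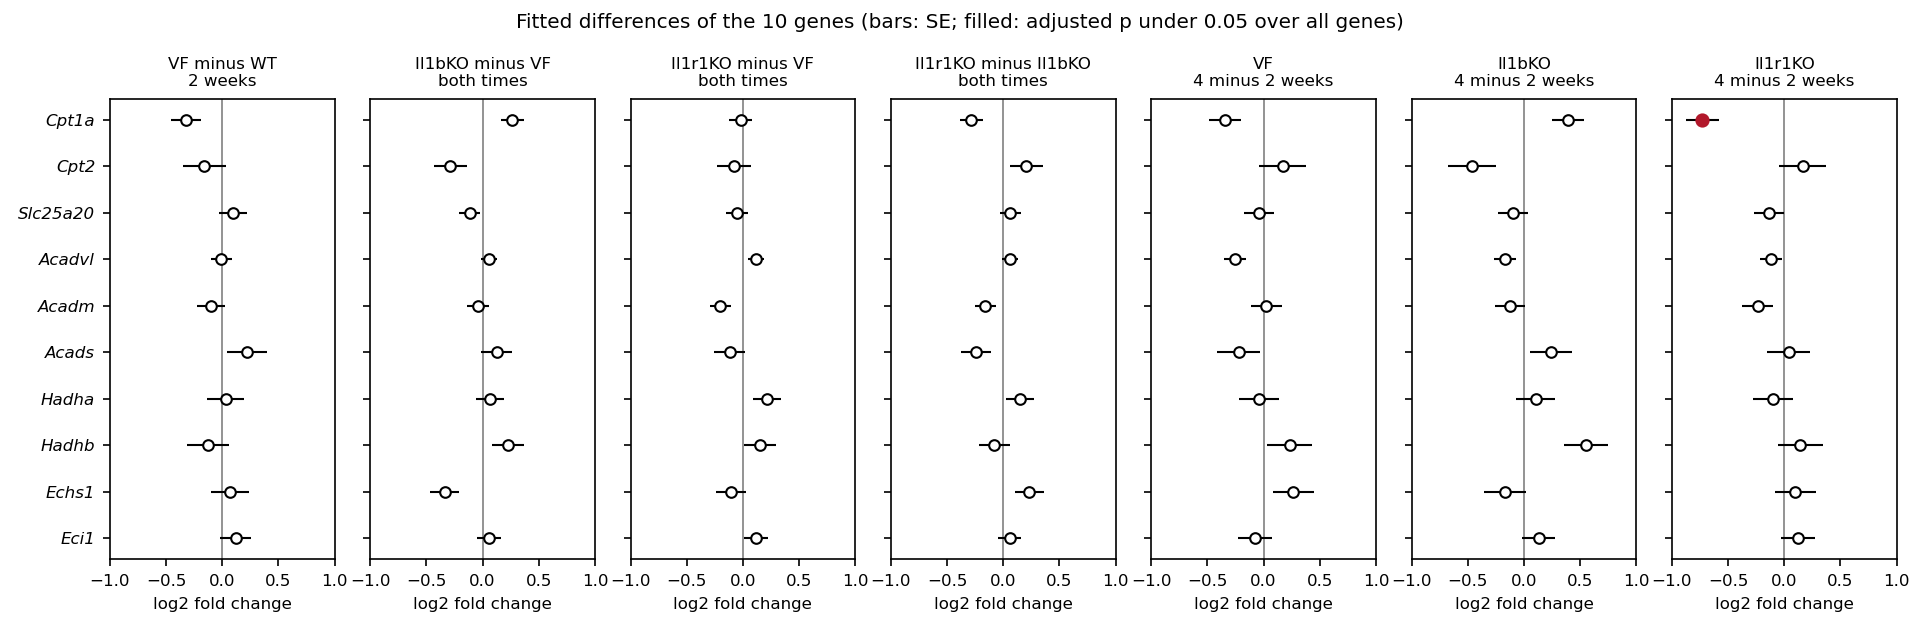
Fitted log2 fold changes of the 10 genes (points) with SE (bars) in 7 comparisons. The filled point is Cpt1a in Il1r1KO at 4 against 2 weeks (-0.73), the one value with an adjusted p under 0.05 over all genes.

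Among the differences between 4 and 2 weeks within a genotype, that of Cpt1a in Il1r1KO was the largest of the set. In Il1r1KO it lay at 189, 198, 180.2 and 152 CPM at 2 weeks and at 97.0, 109.6 and 119 CPM at 4 weeks. Every library of 4 weeks was below every library of 2 weeks. Cpt1a fell by 0.73 ± 0.15 on the log2 scale (edgeR adjusted p = 0.0195), 1 of 10 genes called where edgeR called 2.46% of all genes (335 of 13630) and 0.792% in the lower direction. DESeq2 and limma voom also called it and none of the other 9, where over all genes they called 928 and 518. Without replicate 5 of Il1r1KO at 4 weeks the log2 change was -0.66 with an adjusted p of 0.178, without replicate 1 at 2 weeks it was -0.70 with 0.0512, and with the 2 groups fitted alone it was -0.73 with 0.0539.

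Other measures moved between the same groups. Summed stem cell markers (10 of 10 in the table) lay at 2269 to 2404 CPM at 2 weeks and 1511 to 1950 at 4 weeks in Il1r1KO. Megakaryocyte and platelet markers (4 of 4) lay at 207 to 493 and 476 to 712 CPM, erythroid markers (5 of 5) at 48.1 to 104 and 69.7 to 312 CPM, and the single T and NK cell marker in the table of 5 listed, Nkg7, at 19.7 to 31.5 and 55.9 to 107 CPM. Granulocyte and monocyte markers (6 of 7) lay at 28.3 to 223 and 26.1 to 36.7 CPM, and mast cell and basophil markers (2 of 3) at 1.49 to 6.69 and 5.27 to 10.6 CPM. Endothelial and stromal markers (2 of 5) lay at 68.5 to 85.4 and 55.2 to 61.2 CPM, Cd48 at 0.606 to 5.51 and 4.33 to 17.1 CPM, and the table held 0 of 4 B cell markers. Their part in the Cpt1a change was not tested, and time cannot be told apart from the processing batch.

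In VF, Cpt1a at 4 weeks (132, 113 and 132 CPM) was again below all 4 libraries of 2 weeks (152 to 167 CPM). The log2 change was -0.34 ± 0.14 with an adjusted p of 0.521, so it did not pass. Between the same groups summed stem cell markers went from 2366 to 2997 CPM at 2 weeks to 2038 to 2229 at 4 weeks. Megakaryocyte and platelet markers went from 149 to 272 CPM to 319 to 1859. Mast cell and basophil markers went from 4.25 to 8.76 CPM to 9.71 to 13.01. Cd48 went from 2.09 to 3.19 CPM to 5.15 to 10.02. None of these ranges overlapped between the weeks, while those of the other lists with genes in the table did. The part of these markers was not tested. The Cpt1a change of Il1r1KO was not shown to differ from that of VF (difference -0.38 ± 0.20, edgeR adjusted p = 0.939). Il1bKO went from 132 to 162 CPM at 2 weeks to 264, 145 and 176 CPM at 4 weeks. Its log2 change was 0.39 ± 0.14 (edgeR adjusted p = 0.159), and 0.11 without replicate 5. Stem cell markers in Il1bKO went from 2365 to 3025 CPM at 2 weeks to 1986 to 2333 at 4 weeks. Erythroid markers went from 68.7 to 93.8 CPM to 120 to 149, and Cd48 from 1.43 to 5.33 CPM to 9.82 to 13.6. These did not overlap between the weeks, the other lists with genes in the table did, and their part was not tested.

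In VF, edgeR, DESeq2 and limma voom called 0 of the 10 genes between the weeks (edgeR called 0.0220% of all genes), and 2 of 10 had an unadjusted p under 0.05, Cpt1a and Acadvl, against 8.48% of all genes. Acadvl lay at 141, 143, 125 and 150.4 CPM at 2 weeks and 106, 132 and 114 CPM at 4 weeks, a log2 change of -0.26 ± 0.10 (edgeR adjusted p = 0.503), with overlap. In Il1bKO, 0 of 10 were called by edgeR (0.748% of all genes), DESeq2 and limma voom, and Cpt1a, Cpt2 and Hadhb had an unadjusted p under 0.05, 3 of 10 against 19.1% of all genes. Cpt2 stood at -0.46 ± 0.21 and Hadhb at 0.55 ± 0.20, and without replicate 5 at -0.18 and 0.091. Without replicate 6 instead, edgeR called those 3. In Il1r1KO the other 9 genes had no unadjusted p under 0.05 (19.3% of all genes had), and Acadm stood at -0.24 ± 0.14 (adjusted p = 0.364). Ranges did not overlap between the weeks for 1 of 10 genes in VF (Cpt1a, against 14.4% of all genes), 1 in Il1bKO (Acadvl, 15.9%) and 1 in Il1r1KO (Cpt1a, 16.7%).

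Ordered by mean, Cpt1a ran from WT at 2 weeks (199 ± 16.7 CPM, SD, n = 4) through Il1bKO at 4 weeks (195 ± 62.1, n = 3), Il1r1KO at 2 weeks (179.8 ± 19.8, n = 4), VF at 2 weeks (159.6 ± 6.52, n = 4), Il1bKO at 2 weeks (149 ± 12.9, n = 4) and VF at 4 weeks (126 ± 11.1, n = 3) to Il1r1KO at 4 weeks (108 ± 10.97, n = 3). The ranges of each pair of neighbours in this order overlapped. Without replicate 5 the mean of Il1bKO at 4 weeks was 160.2 ± 21.7 CPM (n = 2).

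Group means over the 7 groups are given here for other members. Slc25a20, the translocase, had group means of 65.2 to 74.1 CPM, and Eci1 of 83.4 to 99.8 CPM. Replicate 5 of Il1r1KO at 4 weeks held the highest Eci1 value at 139 CPM, against 86.5 and 74.2 CPM in its replicates. Acads, whose enzyme takes short chains, had group means of 46.8 to 61.1 CPM, and Acadm of 169 to 224 CPM.

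The trifunctional protein is built from both Hadha and Hadhb subunits. In CPM, the ratio of Hadha to Hadhb had a median of 2.02 over the 25 libraries and ran from 1.09 to 2.76. The lowest value was that of replicate 5 of Il1bKO at 4 weeks, followed by 1.29 in replicate 5 of Il1r1KO at 4 weeks. Group means of the ratio ran from 1.67 ± 0.659 (n = 3) in Il1bKO at 4 weeks to 2.21 ± 0.381 (n = 4) in Il1r1KO at 2 weeks. Their promoter windows overlap, and the within-group deviations of Hadha and Hadhb had a Pearson r of 0.32 over 25 libraries and 0.25 over the 24 without the library that stood apart.

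**Figure D4:**
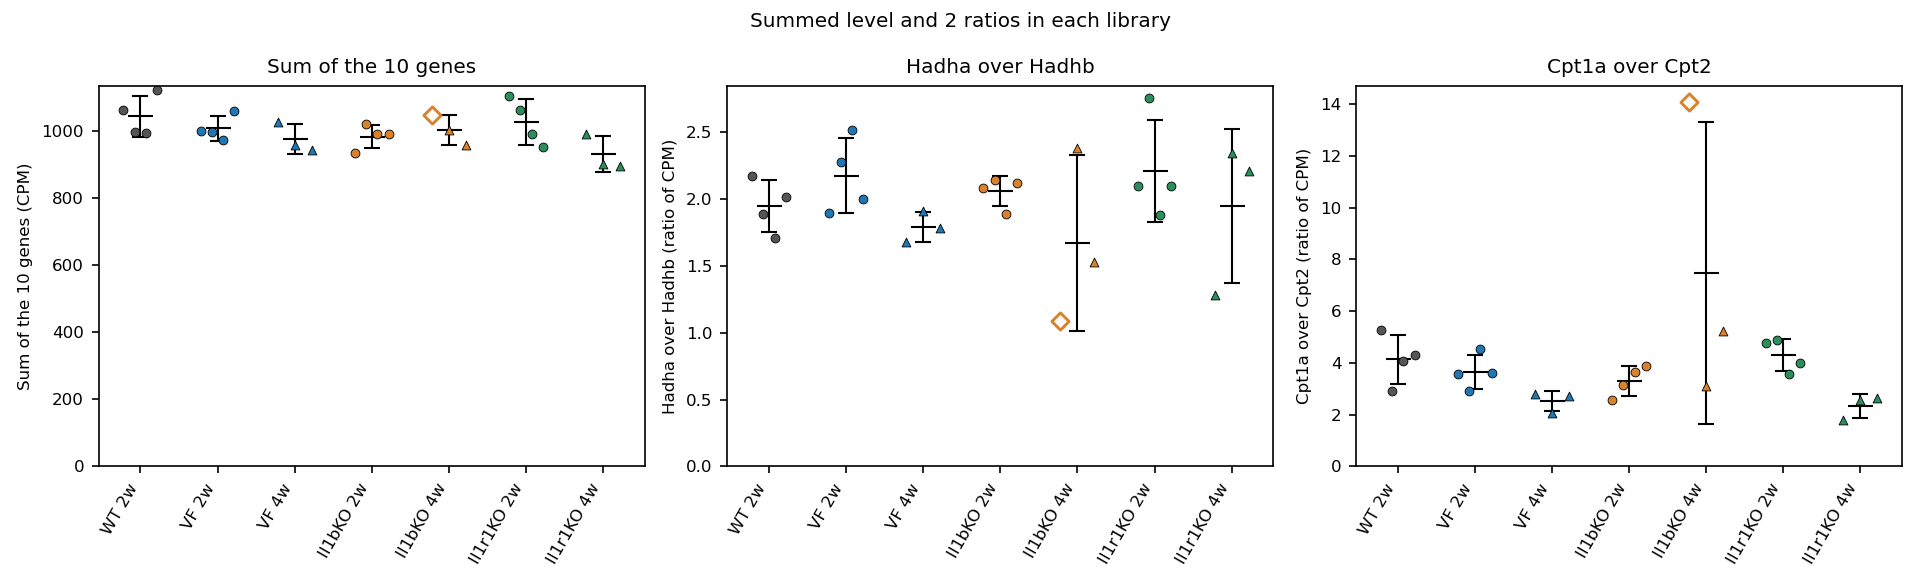
Summed CPM of the 10 genes, ratio of Hadha to Hadhb and ratio of Cpt1a to Cpt2 in each library (circles 2 weeks, triangles 4 weeks, bars mean and SD). The open diamond, replicate 5 of Il1bKO at 4 weeks, has the lowest Hadha to Hadhb ratio (1.09) and the highest Cpt1a to Cpt2 ratio (14.1), with a sum inside the range of the others.

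As a set the 10 genes showed little shared movement within groups. Over the 45 gene pairs, the r of within-group deviations of log2 CPM had a median of 0.012 and was above 0 in 23. The lowest was -0.78 for Cpt1a with Cpt2 and the highest 0.69 for Cpt2 with Echs1. Without the library that stood apart the lowest was -0.53, again Cpt1a with Cpt2, and the highest 0.54 for Acads with Hadha. All values come from the same libraries and share their depth. The 5 genes outside the set that followed its mean deviation best over the 25 libraries included Tmem200b (r = 0.779), Otub1 (0.690), Sys1 (0.689) and Cmtm7 (0.688).

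Another 75 genes of fatty acid handling were listed, of which 73 were in the table, and 5 of them were called by edgeR in at least 1 comparison, of which 4 are described. Acadl encodes the long-chain acyl-CoA dehydrogenase, which in the mouse works beside Acadvl. It lay at 119, 94.7, 120.4 and 115 CPM in Il1r1KO at 2 weeks and 157, 138 and 114 CPM at 4 weeks. The 7 VF libraries ran from 168 to 272 CPM with a median of 195, the 7 Il1bKO libraries from 169 to 226 with a median of 192, and the 4 WT libraries from 178 to 234 CPM. Every Il1r1KO library was below every library of the other genotypes. Acadl fell by 0.70 ± 0.11 on the log2 scale against VF over both weeks (edgeR adjusted p = 0.00204) and by 0.63 ± 0.11 against Il1bKO (adjusted p = 0.00659). Within 2 weeks the log2 difference from VF was -0.77 ± 0.14 (adjusted p = 0.0423), and leaving out any 1 of the 8 libraries took the adjusted p to between 0.0695 and 0.186. Within 4 weeks it was -0.63 ± 0.16 (adjusted p = 0.112). Acadl (chr1:66830839-66863277) lies 26.5 Mb from Il1r1, the gene targeted in these donors, on the same chromosome, and the part of that in the difference was not tested.

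Etfb, a subunit of the flavoprotein that takes electrons from the acyl-CoA dehydrogenases, lay at 302, 259.6, 286 and 292 CPM at 2 weeks and 610.1, 352 and 356 CPM at 4 weeks in Il1r1KO. It rose by 0.63 ± 0.16 (edgeR adjusted p = 0.0431), and by 0.31 with an adjusted p of 0.389 without replicate 5 of 4 weeks. Pdk2, a kinase that turns off pyruvate dehydrogenase, lay at 49.4, 73.7, 38.7 and 59.7 CPM at 2 weeks and 25.8, 26.6 and 40.6 CPM at 4 weeks in the same donors. The groups overlapped, and Pdk2 fell by 0.84 ± 0.21 (adjusted p = 0.0386). Leaving out any 1 of replicates 1, 2 and 4 at 2 weeks or 5 and 6 at 4 weeks took Pdk2 above the threshold, to at most 0.266.

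Echdc2, which encodes a mitochondrial protein of the enoyl-CoA hydratase family, was the one gene of all 13630 called in VF against WT. It lay at 4.29, 4.81, 2.63 and 5.79 CPM in WT and at 445, 392, 321 and 370.4 CPM in VF at 2 weeks, a log2 difference of 6.45 ± 0.24 (edgeR adjusted p = 1.44e-14). CreERT2 reads, 0 or 1 per WT library, separated the same libraries, and their part was not tested. Echdc2 lies at chr4:108165437-108179308. In Il1bKO it lay at 569, 731, 709 and 671 CPM at 2 weeks and 956, 653 and 521 CPM at 4 weeks, above the 7 VF libraries (292 to 502 CPM). Over both weeks it rose by 0.78 ± 0.14 against VF (adjusted p = 0.0177), and by 0.64 with an adjusted p of 0.0613 without replicate 5. In Il1r1KO, Echdc2 lay at 731, 657, 663 and 717 CPM at 2 weeks and 593, 593 and 523 CPM at 4 weeks, also above the 7 VF libraries. Its log2 difference from VF over both weeks was 0.64 ± 0.14 (edgeR adjusted p = 0.0678), which did not pass in edgeR, while DESeq2 (adjusted p = 0.00178) and limma voom (0.000266) called it. Il1r1KO minus Il1bKO was -0.14 ± 0.14 (edgeR adjusted p = 0.701). CreERT2 lay at 445 to 828 CPM in Il1bKO, 321 to 595 CPM in Il1r1KO and 195 to 388 CPM in VF.

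**Figure D5:**
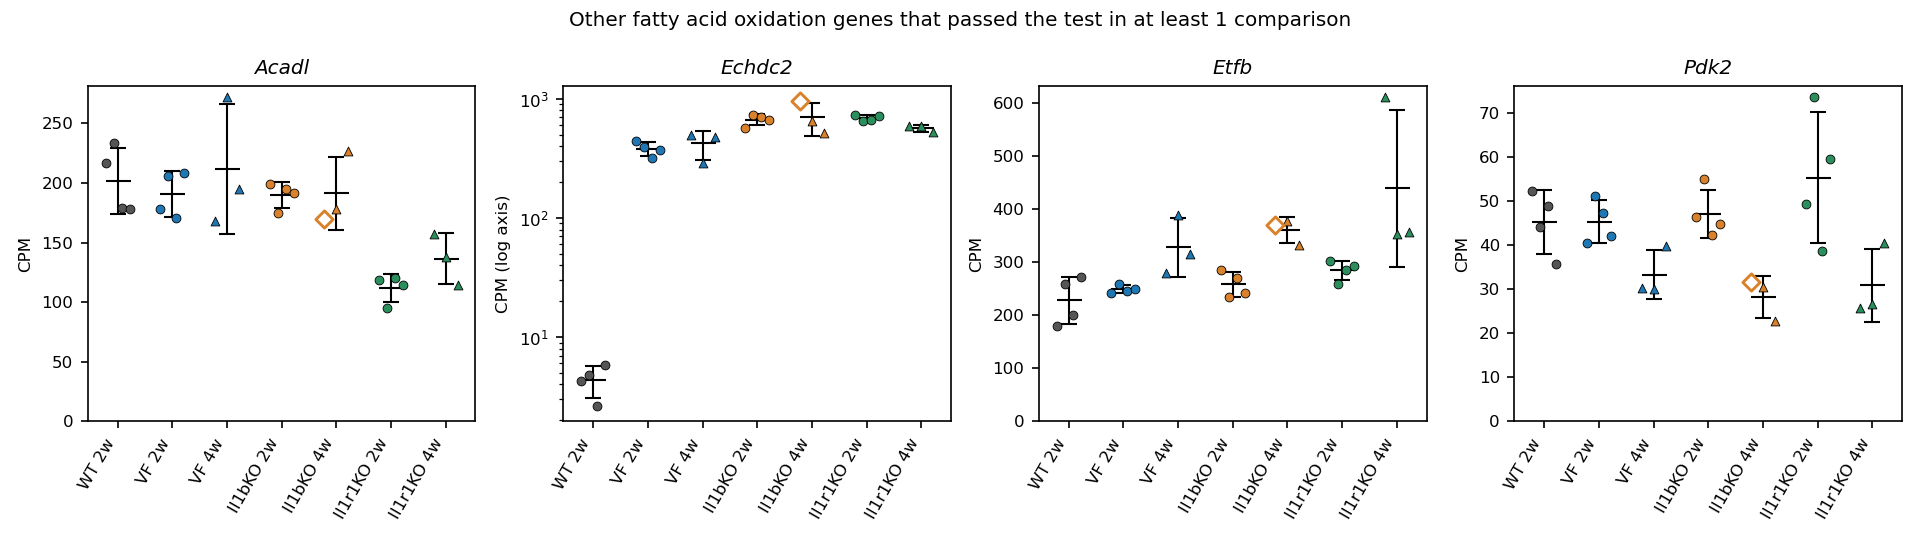
CPM of 4 further fatty acid oxidation genes called in at least 1 comparison, by library (circles 2 weeks, triangles 4 weeks, open diamond replicate 5 of Il1bKO at 4 weeks, bars mean and SD), with a log axis for Echdc2. Acadl is lowest in the 7 Il1r1KO libraries, and Echdc2 is at 2.63 to 5.79 CPM in WT and at 292 CPM or more elsewhere.

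Counted by list, edgeR called in VF against WT 1 of 17 other mitochondrial beta-oxidation enzymes (Echdc2, higher), 0 of 17 uptake, activation and carnitine genes, 0 of 8 genes of the malonyl-CoA brake on Cpt1 and its AMPK subunits, 0 of 17 tested regulators such as the PPAR genes, and 0 of 14 peroxisomal genes. At an unadjusted p under 0.05 there were 3 of 73 (2.27% of all genes), and the median log2 difference was 0.0083, against 0.0020 over all genes. In Il1bKO against VF over both weeks 1 of 73 was called, Echdc2, with 6 at an unadjusted p under 0.05 (9.38% of all genes), and in Il1r1KO against VF 1 of 73, Acadl, with 8 (11.4%). Between the weeks, 0 of 73 were called in VF (4 at an unadjusted p under 0.05), 0 in Il1bKO (13) and 3 in Il1r1KO (10), among them Etfb higher and Pdk2 lower. Of all genes, 8.48% in VF, 19.1% in Il1bKO and 19.3% in Il1r1KO had an unadjusted p under 0.05. The median log2 change over the 73 genes was -0.073 in VF, 0.014 in Il1bKO and -0.053 in Il1r1KO, against -0.0033, -0.024 and -0.019 over all genes. The uptake and malonyl-CoA lists had 0 called genes in each of the 13 comparisons.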

How the data were processed

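Gene-level counts of 25 libraries were analysed as the authors deposited them. Per the labels' protocols, RNA was extracted with PicoPure and made into unstranded libraries with SMART-Seq v4. STAR 2.7.10a, featureCounts (no version), FastQC 0.11.5, R 4.2.2 and the build mm10 are listed in the submitters' processing notes. Every gene in the table reached 32 counts or more in at least 1 library. The 4 construct sequences were kept out of library sizes and tests.

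Symbols, exon lengths and gene positions came from GENCODE vM21, and promoter windows from RefSeq, where 10 of 10 members matched. All 7 groups were fitted together with the quasi-likelihood method of edgeR 4.0.16 in R 4.3.3 (TMM scaling, robust dispersion, filterByExpr). In 13 comparisons, p was adjusted by Benjamini-Hochberg over 13630 genes and read at 0.05. Differences over both weeks are means of the 2 within-week differences. CPM used TMM library sizes, and correlations used log2 CPM with a prior count of 2. Each result was recomputed with DESeq2 1.42.0, with limma voom 3.58.1 and its quality weights, with upper-quartile and RLE scaling, unfiltered, with genes of CPM 5 in 3 libraries, in a fit of the groups compared, with a term for replicate number, and without single libraries. The procedure was tested on simulated data.

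All 10 members were named in each comparison, and other listed genes where called. Some genes that these rules select are not reported here. The genes nearest to the set were the 5 with the highest r to its mean deviation within groups. The members, lists, tests and alternatives were chosen with earlier results of these data known. Same-numbered libraries were checked for pairing, and 0 of 33 pairs had an r of deviations above 0.1.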

Additional observations from a re-analysis of the deposited data

Results flagged for a closer look

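Over the 10 genes and the 4 others described above, 56 sets of 4 libraries of 1 group were examined. In 3 of them the gap of 1 library to its nearest neighbour was large for the spread of the set, and chance gives about 1 in 20. Hadha lay at 54.5 CPM in replicate 1 of VF at 2 weeks, below 71.7 to 74.5 CPM in the others. Hadha lay at 60.8 CPM in replicate 4 of Il1bKO at 2 weeks, below 69.9 to 71.2 CPM. Echs1 lay at 157 CPM in replicate 4 of WT, above 117 to 122 CPM. Groups of 3 libraries were not examined in this way.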

How the results depend on the processing

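Counts of called genes over all 13630 depended on the method, and for each such change the cause was not tested beyond the libraries left out. In the order VF against WT, Il1bKO against VF (both weeks, 2 weeks, 4 weeks), Il1r1KO against VF (both weeks, 2 weeks, 4 weeks), Il1r1KO against Il1bKO, 4 against 2 weeks in VF, Il1bKO and Il1r1KO, and change of the difference with week for Il1bKO and Il1r1KO, DESeq2 called 8, 100, 15, 375, 148, 20, 231, 166, 46, 607, 928, 51 and 22 genes. The edgeR counts in that order were 1, 19, 1, 17, 23, 7, 20, 24, 3, 102, 335, 2 and 0. Limma voom called 2, 13, 11, 0, 321, 21, 406, 20, 159, 103, 518, 0 and 5. The compared groups alone gave 3, 13, 7, 0, 39, 11, 1, 18, 6, 4, 39, 0 and 0. The stricter filter gave 5 genes between the weeks in VF and 1 for the change of the Il1bKO difference. Without VF_4w 6, Il1bKO_4w 5 and Il1r1KO_4w 5 the counts were 296 in Il1r1KO against VF over both weeks, 398 at 4 weeks, 14 between the weeks in VF, 119 in Il1r1KO, and 0 and 32 for the changes with week.

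Same-numbered libraries did not deviate together (r from -0.15 to 0.08). With the replicate number as a block, edgeR called 0 genes in Il1bKO against VF at 2 weeks, 7 at 4 weeks, 2 and 5 in Il1r1KO against VF, and 0 for the change of the Il1bKO difference. No paired analysis was possible between the weeks because they share no number.

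Leaving out 1 library at a time gave 1 to 1 genes for VF against WT, 13 to 63, 0 to 0 and 5 to 225 for Il1bKO against VF (both weeks, 2 weeks, 4 weeks), 15 to 117, 1 to 2 and 1 to 139 for Il1r1KO against VF, and 23 to 124 between the knockouts. Between the weeks it gave 2 to 8 (VF), 8 to 516 (Il1bKO) and 10 to 827 (Il1r1KO), and for the changes with week 0 to 22 and 0 to 2. The 8 without Il1bKO_4w 5 and the 10 without Il1r1KO_4w 5 are the lowest of their ranges.

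Called members numbered 0 to 3 in Il1bKO against VF at 4 weeks (1 by DESeq2), 0 to 3 between the weeks in Il1bKO, 0 to 1 in Il1r1KO (0 with the groups alone) and 0 to 1 for the change of the Il1bKO difference, and 0 in the other comparisons under each alternative run. Among 38 of the printed log2 differences, which were followed through the alternative runs, 1 changed sign. That was Hadhb in Il1bKO against VF at 4 weeks, at -0.051 without the 3 libraries. With 1 library left out it ran from -0.071 (without Il1bKO_4w 5) to 0.59. With the replicate number as a block, the edgeR adjusted p in Il1r1KO against VF was 0.128 for Acadl at 2 weeks, so that call was lost. Each of the 10 genes had 731 counts or more per library, and groups held 3 or 4 libraries.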
